A study of Drosophila melanogaster with 12 samples.

Results

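State 3 regions are the regulatory, or enhancer, class of a map that divides the Drosophila melanogaster genome into 9 chromatin states. They were taken from the deposited list of regions as those with state number 3, leaving out chromosome 4 and the chromosome names that end in Het. By this rule there were 5048 State 3 regions among the 42126 regions of the list, or among 41207 regions on the 5 large arms, and 38 further State 3 regions lay on the names left out. The map belongs to no sample of the study, whose 12 libraries measured GFP-tagged histones in testes by chromatin immunocleavage (ChIC), a method in which an antibody guides micrococcal nuclease to cut DNA around the tagged histone. The groups were nanos > Unpaired, H3.3S31A-GFP testes and nanos > Unpaired, H3A31S-GFP testes, which carried a histone with the exchanged residue, and nanos > Unpaired, H3.3-GFP testes and nanos > Unpaired, H3-GFP testes, which carried the unexchanged histones, with 3 biological replicates each. A nanos driver expressed the tagged histone and the ligand Unpaired in the germline in every group. No library was therefore without the tumors of germline and somatic stem cells that Unpaired causes. By the paper's methods, all genotypes carried hsFLP. The H3A31S line was crossed to a driver stock named nos(green eye)-Gal4 and the other lines to nos>Gal4. Its histone transgene lay on a different chromosome from that of Unpaired, whereas in the other lines both shared a chromosome. Each replicate pooled the testes of several young males, 18 to 20 testis pairs by the labels and the methods, although the series' design text counts testes. The labelled cell type could not be checked, since reads over regions hold no marker genes.

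Enhancer chromatin is known for histone H3 that is monomethylated on lysine 4 and acetylated on lysine 27, and in flies much of it lies in the long introns of developmental genes. Histone H3.3 is deposited outside replication at active genes and their regulatory elements, whereas H3 is deposited at replication. In the testis, Unpaired activates the Janus kinase Hopscotch and the transcription factor Stat92E in the stem cells next to the niche, which raises genes such as Socs36E, an inhibitor of the same pathway, and chinmo, a BTB zinc finger gene needed by somatic cyst stem cells.

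State 3 sequence is shown first for 5 pieces of DNA, because each piece held 2 matches to TTCNNNGAA, the half-sites and spacer that Stat92E recognises. A piece is a bin of 200 bp on 2L that was State 3 in both regions that cover it and lay in or within 5 kb of a gene of the lists described further on. Among 1239 such bins, 86 held at least 1 match (6.94%), 6 held 2, and none held more. The share with a match was close to that of all bins of 2L, which is given with the other motifs. The counts differ, since here a match had to lie wholly inside the bin and there it only had to start in it. How many of all bins held 2 was not counted, so the pieces are examples and not a trait of State 3. The sequences are RefSeq dm6, plus strand, with the matches in capitals. All 5 were free of annotated exon. The sixth bin lay in an exon of lilli and is named only.
Socs36E intron, chr2L:18147763-18147962: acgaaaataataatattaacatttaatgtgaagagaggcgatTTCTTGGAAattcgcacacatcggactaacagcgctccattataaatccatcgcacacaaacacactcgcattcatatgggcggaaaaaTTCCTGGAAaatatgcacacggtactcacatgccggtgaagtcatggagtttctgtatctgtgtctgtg
Socs36E intron, chr2L:18141363-18141562: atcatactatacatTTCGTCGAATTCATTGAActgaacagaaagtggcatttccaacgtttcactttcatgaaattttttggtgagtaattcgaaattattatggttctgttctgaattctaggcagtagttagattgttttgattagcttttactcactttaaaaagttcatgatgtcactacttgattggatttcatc
spen intron, chr2L:165963-166162: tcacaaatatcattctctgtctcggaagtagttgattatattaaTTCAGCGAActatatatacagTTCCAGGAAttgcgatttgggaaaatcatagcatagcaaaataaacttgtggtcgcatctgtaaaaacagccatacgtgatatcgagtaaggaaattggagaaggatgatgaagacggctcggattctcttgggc
vri intron, chr2L:5290563-5290762: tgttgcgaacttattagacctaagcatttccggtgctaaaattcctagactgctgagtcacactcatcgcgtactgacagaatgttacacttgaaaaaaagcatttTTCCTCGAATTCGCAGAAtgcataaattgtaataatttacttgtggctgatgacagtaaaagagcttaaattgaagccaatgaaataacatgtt
PRL-1 intron, within 5 kb of twe, chr2L:16255163-16255362: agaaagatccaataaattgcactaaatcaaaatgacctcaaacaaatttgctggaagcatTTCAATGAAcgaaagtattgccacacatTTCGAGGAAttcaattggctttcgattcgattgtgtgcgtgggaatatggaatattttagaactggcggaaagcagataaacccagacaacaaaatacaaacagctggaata

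Socs36E thus held 2 of the 6 bins, 4554 and 3380 bp from the nearest protein-coding TSS, which for the bin nearer the 3′ end of Socs36E was that of the neighbouring gene kel. In the vri and in the more 3′ Socs36E bin the 2 matches directly followed each other. A match is a string of letters and was not read as a bound site.

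State 3 took a similar share of every arm. It made up 12.2% ± 0.55 of the regions of an arm (SD over 5 arms) and 12.5% ± 1.00 of the bases that the list covers, between 10.9% on 2L and 13.6% on X. There were 888 State 3 regions on 2L, 1024 on 2R, 1056 on 3L, 1153 on 3R and 927 on X. The median State 3 region was 2200 bp long, with the middle 50% of regions between 1200 and 5000 bp and the whole range from 200 to 60800 bp. State 1, the promoter state, had a median of 1800 bp, State 4, that of active introns, had the same median as State 3, and State 9, the silent state, had 3200 bp. A small number of long regions held much of the class, since 475 State 3 regions of at least 10 kb (9.41%) held 39.5% of the summed length, and 134 regions were a single bin of 200 bp.

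The list laid 2 regions over nearly every base, and the 2 often gave State 3 DNA different states. State 3 covered 14791.8 kb, and of its doubly covered bases 41.6% were State 3 in both regions, with 39.3% to 43.2% on the 5 arms. That share was lower than the 71.3% of State 1 and the 63.0% of State 2, the elongation state, and higher than the 31.6% of State 4 and the 10.4% of State 8, the heterochromatin-like state of euchromatin. Where the other region was not State 3, it was State 4 over 48.5% of the bases, State 9 over 16.3%, State 2 over 10.5%, State 1 over 7.37% and State 6, the Polycomb state, over 7.34%. No source used here says what the 2 layers of regions stand for.

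State 3 regions were bordered mainly by intron and promoter chromatin. Of 9641 sides with a known neighbour, 45.7% abutted State 4, 25.1% State 1, 16.3% State 2 and 3.58% State 9. Only 167 sides abutted Polycomb State 6 (1.73%) and 4 abutted State 8. Seen from the other side, State 3 made up 36.4% of the neighbours of State 4, 17.4% of those of State 1 and 11.9% of those of State 2. The commonest setting was State 4 on both sides (1322 of 4613 regions with both neighbours known, 28.7%), followed by State 1 with State 4 (748) and State 1 with State 2 (726). Chromosome X differed from the autosomes in these borders, with State 5, the state of active genes on the male X, on 32.2% of its sides and State 2 on 0.918%, whereas State 2 held 18.1% to 21.0% of the sides on the autosomal arms.

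**Figure D1:**
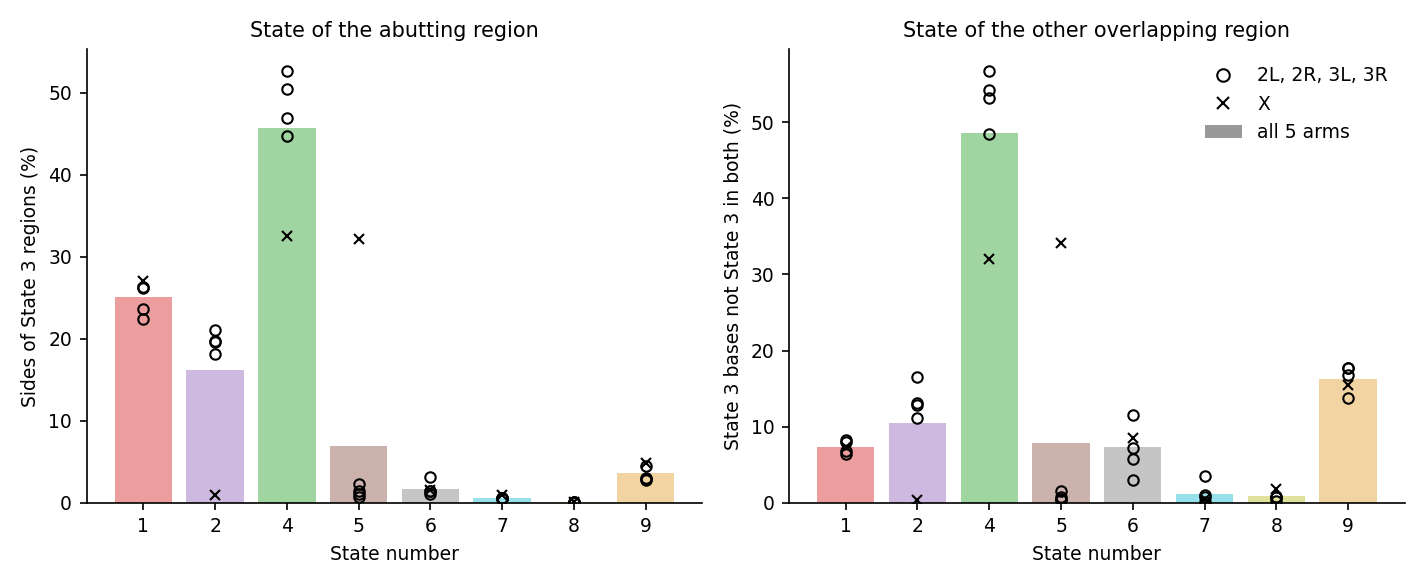
The left panel plots the share of State 3 region sides (%) that abut each other state, and the right panel the share of State 3 bases (%) that have each other state in the second region, leaving out bases that are State 3 in both. Bars are all 5 arms, circles the 4 autosomal arms and crosses X. State 4 leads in both panels at 45.7% and 48.5%, and State 5 stands out on X only.

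Merging State 3 regions that overlap or abut gave 3257 stretches with a median of 2400 bp and a median gap of 11200 bp. Of these, 1857 (57.0%) rested on 1 region and were short, with a median of 1400 bp, against 4600 bp for stretches of 2 or more regions. The longest was 78600 bp and lay on 3L.

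Listed coordinates matched dm6 genes on 2L, and the statements on genes and sequence therefore use 2L alone. There, 40.2% of protein-coding TSSs fell in State 1, which covers 7.68% of the bases, while the same share was 20.8% on 3L, 9.31% on 2R, 9.16% on 3R and 11.2% on X. On 2L, 73.0% of State 3 bases were intron, 12.5% intergenic, 6.29% 5′ UTR, 6.11% coding and 2.16% 3′ UTR. Of all covered bases of 2L 40.2% were intron and 3.23% 5′ UTR. The intron share was 64.2% in State 4, 39.5% in State 9 and 20.8% in State 1. Over bases that were State 3 in both regions the intron share was 80.4%. First introns held 65.8% of the intronic State 3 bases, against 49.6% of all intronic bases, 53.1% of those in State 4 and 44.7% of those in State 9.

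State 3 took more of long introns than of short ones. It covered 3.41% of the bases of introns under 200 bp, 12.2% from 200 to 1000 bp, 20.8% from 1 to 5 kb, 27.9% from 5 to 10 kb, 28.3% from 10 to 20 kb and 21.6% at 20 kb or more. State 4 went on increasing over the same classes, to 41.3% of the bases of the longest introns. State 3 was found in 3.21% of introns of the shortest class and in 53.8% of those of the longest.

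Along genes, State 3 lay toward the 5′ end. In the 183 genes of at least 10 kb that held State 3 it covered on average 53.7% of the first decile of gene length, 55.6% of the next, 40.5% of the fifth and 9.31% of the last. State 4 was highest in the fourth decile at 51.3%, State 2 in the last at 71.4%, and State 1 in the first at 24.7%. Over all 341 genes of at least 10 kb, State 3 covered 28.8% of the first decile and 5.00% of the last. Transcripts that start inside a gene were not separated, so any decile can hold transcript starts besides the one farthest 5′.

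**Figure D2:**
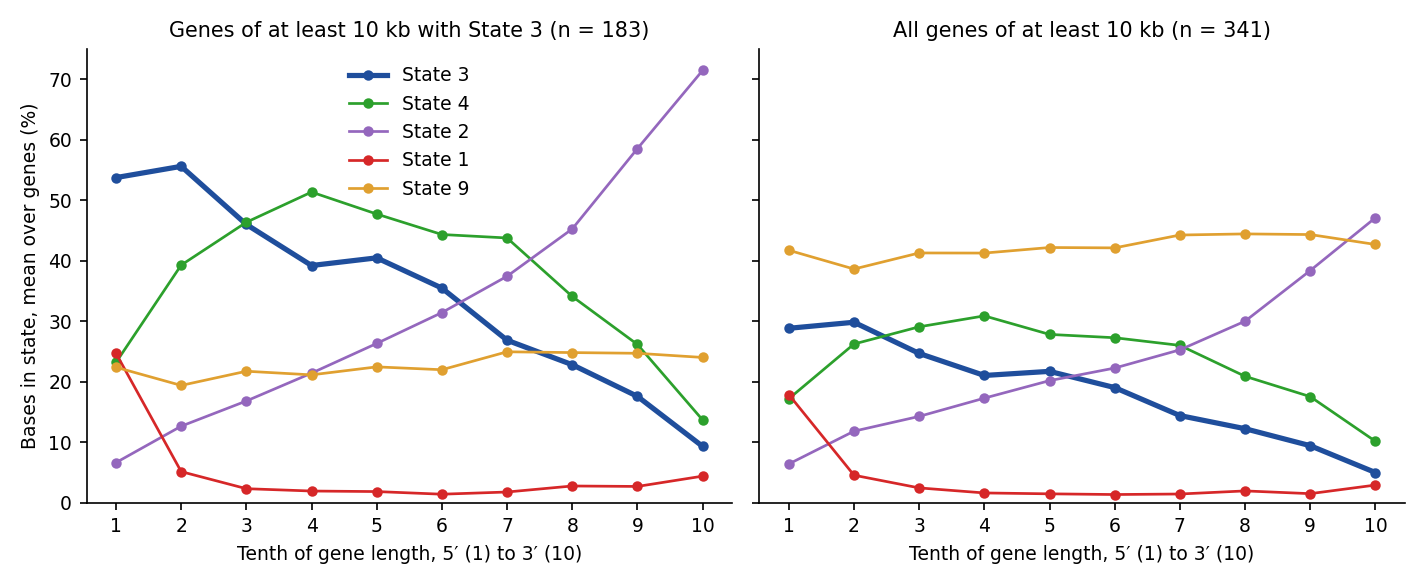
The mean share of bases (%) in States 3, 4, 2, 1 and 9 is plotted for each decile of gene length from 5′ to 3′, for the 183 genes of 2L of at least 10 kb with State 3 (left) and for all 341 genes of at least 10 kb (right). State 3 is highest in the first 2 deciles and stands at 9.31% in the last on the left and 5.00% on the right, while State 2 is highest in the last.

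Over all protein-coding TSSs of 2L, with genes that hold no State 3 included, State 3 stood near its share of the bases. In the long genes that held it, State 3 lay toward the 5′ end, as given above. On 2L, 416 of 3687 protein-coding TSSs lay in State 3 (11.3%, 95% Wilson interval 10.3% to 12.3%), while State 3 covered 10.9% of the bases. With 1 TSS per gene, the one farthest upstream, the share was 7.38% (6.44% to 8.43%), below the covered share. With every TSS the covered share lay inside the interval. Bases that were State 3 in both regions held 4.12% of TSSs (3.53% to 4.81%) and made up 4.46% of the covered bases. The profile around TSSs was nearly flat, with 11.3% in State 3 at the TSS, 10.6% at 2 kb upstream and 12.8% at 20 kb upstream. Its highest point within 20 kb was 14.5%, at 17800 bp downstream. A TSS was held by 359 of 888 State 3 regions (40.4%), a share between those of State 4 and State 9. It was held by 1132 of 1239 State 1 regions (91.4%), 379 of 1266 State 4 regions (29.9%) and 656 of 1551 State 9 regions (42.3%). The median distance of the centre of a State 3 region to the nearest TSS was 1658.5 bp, against 335 bp for State 1, 2083 bp for State 2, 2918.5 bp for State 4 and 3046 bp for State 9. There were 113 State 3 regions (12.7%) centred over 10 kb from any TSS.

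State 3 touched 428 of 2657 protein-coding genes of 2L (16.1%), and a larger share of long genes than of short ones. It was found in 4.56% of genes under 2 kb (61 genes), 13.2% of 2 to 5 kb (93 genes), 33.3% of 5 to 10 kb, 51.0% of 10 to 20 kb, 52.7% of 20 to 50 kb and 64.2% of 50 kb or more. Any overlap counted here, which a longer gene meets more easily. By bases, State 3 took 2.89%, 5.25%, 14.0%, 21.2%, 17.2% and 15.4% of these classes, the most at 10 to 20 kb. Genes held 87.5% of the State 3 bases of 2L, and the 100 genes with the most held 64.8%.

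The gene with the most was bun, which encodes a TSC22 family transcription regulator. Its 91.1 kb at chr2L:12455540-12546611 held 74.4 kb of State 3 in 14 regions (81.7% of the gene), of which 58.1% was State 3 in both layers and 39.8% State 4 in the other. The second was ush, a FOG family cofactor of GATA factors, at chr2L:476220-540560, with 59.4 kb (92.3%) and 86.9% of it State 3 in both layers. The 2 longest State 3 regions of 2L both lay over ush, with 47400 and 42600 bp.

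The ecdysone receptor coactivator gene tai held 53.8 kb (64.5% of its length), the Notch-cleaving metalloprotease gene kuz 38.6 kb (43.2%), the translational repressor gene brat 33.6 kb (73.1%) and the corepressor gene spen 25.8 kb (58.2%). In brat, kuz and spen 91.7%, 82.9% and 96.9% of these bases were State 3 in both layers, against 50.6% in tai. The genes mtgo (43.4 kb), sick (43.0 kb), MESR3 (39.5 kb), CG42238 (38.4 kb), CG32982 (27.0 kb) and the transmembrane semaphorin gene Sema1a (26.4 kb) were also among the 15 with the most, as were CG43739 and sky, which share their coordinates and their 34.4 kb. In sick, CG32982 and Sema1a the second layer was State 4 over 68.4%, 82.2% and 65.9% of the State 3 bases.

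Among genes of at least 5 kb, State 3 covered the whole of CG5953, fok and kek1, the last of which encodes a leucine-rich repeat inhibitor of the EGF receptor. Agpat2 was covered over 98.1%, Traf4 over 96.0%, the bHLH gene crp over 93.5%, the Ryk-type receptor gene dnt over 93.1%, Swip-1 over 92.2% and rau over 88.9%. In 2 of these 10 genes no base was State 3 in both layers. The other layer was State 4 over 94.3% of the State 3 bases of Agpat2 and State 9 over 94.3% of those of rau.

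In a small set of genes the other layer was Polycomb State 6. Of 24 genes with any such bases, 3 had at least 5 kb, and these 3 and noc were chosen after their values were seen. They were chinmo with 33.6 kb, ham, a PRDM zinc finger gene, with 13.7 kb, and ab, a BTB zinc finger gene, with 8.29 kb. In ham, ab and the zinc finger gene noc (3.16 kb, its whole length) all State 3 bases were State 6 in the other layer, and none was State 3 in both. State 9 stood opposite State 3 over at least 5 kb in 8 genes, with the most in CadN, which encodes N-cadherin (18.4 kb, all of its State 3), followed by rau (16.5 kb) and osp (9.8 kb). For comparison, 208 genes had State 3 in both layers and 49 of them over at least 5 kb.

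The 2 JAK-STAT genes of a list of 15 that lie on 2L differed in this way. Socs36E, at chr2L:18138675-18152417 on the minus strand, was covered over 83.0% by 2 nearly equal State 3 regions of 10800 and 11000 bp, and 75.7% of the gene was State 3 in both. State 1 lay at its start and State 2 over its 3′ end. chinmo, at chr2L:1651258-1704682 on the plus strand, was covered over 63.1% by 4 State 3 regions of 6800, 9800, 16800 and 400 bp, none of which had State 3 opposite it. A single State 6 region of 89200 bp lay over 99.8% of the gene. Socs36E held 20 Stat92E matches, 18 of them in State 3, or 1.46 per kb of gene, and chinmo, which is longer, also held 20, 17 of them in State 3, or 0.374 per kb. All of 2L had 0.333 per kb.

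**Figure D3:**
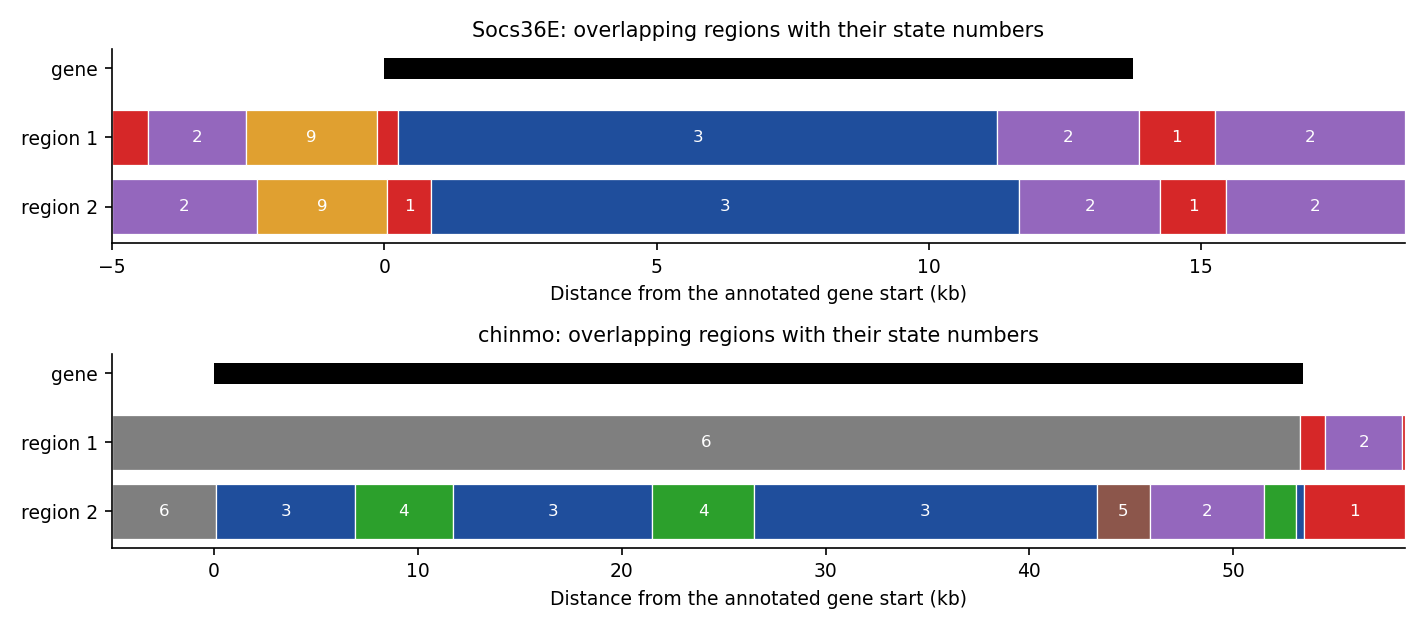
The regions over Socs36E (top) and chinmo (bottom) are drawn as bars with their state numbers, in 2 rows because 2 regions cover each base, against distance from the annotated gene start in kb. Narrow bars without a number are State 1 (red), State 3 (blue) or State 4 (green). Both rows are State 3 over 75.7% of Socs36E, whereas a State 6 region of 89200 bp lies opposite the 4 State 3 regions of chinmo.

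The lists of gene groups differed in gene length as well as in how many members held State 3. Each is therefore set beside the length class that holds its median. Members of a list ran over several classes, so this was not a match gene by gene. Whether a list differed from genes of its members' own lengths was not tested. Among developmental regulators, with a median length of 18829 bp, 24 of 57 held State 3 (42.1%), against 51.0% of all genes of 10 to 20 kb. The highest shares of length were in noc (100%), ush (92.3%), bun (81.7%), the bZIP clock gene vri (81.1%) and the Ets repressor gene aop (80.8%). Of neuronal adhesion, guidance and channel genes, with a median length of 41023.5 bp, 15 of 30 held State 3, against 52.7% of all genes of 20 to 50 kb. This list as set also held Pka-C1, a protein kinase gene that its name does not describe. The highest shares of length among its members were in kek1 (100%), dnt (93.1%), Pka-C1 (62.4%), robo2 (28.0%) and Sema1a (20.3%). Neither list was above the class of its median length, although both also held genes of other classes. Over all 2657 genes the share was 16.1% and the median length 1986 bp.

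Of 20 testis niche and germline genes, with a median length of 13630.5 bp, 7 held State 3, a smaller share than the 51.0% of all genes of 10 to 20 kb. They were Socs36E, chinmo, the BMP type I receptor gene tkv (46.6%), the Smad gene Mad (35.3%), the cyclin gene CycE (17.4%), cup (10.8%) and stai (8.18%). The germline genes vas, piwi, aub and twe and the niche marker Fas3 had none. None of 19 ribosomal protein genes and 1 of 38 sensory receptor, odorant binding and cuticle protein genes, Obp22a, held State 3, and these lists had median gene lengths of 1276 and 1430 bp, in the class where 4.56% of genes held State 3.

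The deposited reads per region stand in 12 columns without names, so no column could be given a histone or a replicate, and only their sum was used. No difference between H3.3S31A, H3A31S, H3.3 and H3 was computed, and no read value has a replicate error. State 3 regions of 2L held 2178391 summed reads over 3518.6 kb of region, or 619 reads per kb (95% Poisson interval 618 to 620), against 632 for State 1, 576 for State 4, 562 for State 6, 548 for State 9 and 557 for all regions of 2L. All intervals here cover counting error only, and they are too narrow even for that. State 3 covered 2497.8 kb of 2L, of which 1020.8 kb was State 3 in both regions, so reads there entered the sum 2 times. The median State 3 region had 643 reads per kb (middle 50% 592 to 700), against 636 for State 1, 603 for State 4, 573 for State 6, 572 for State 9 and 596 for all regions of 2L. State 1 was thus above State 3 in summed reads per kb and under it in the median region. State 5, with 90 regions on 2L, had 610 summed reads per kb and a median of 626, and State 2 had 572 and 587.5.

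Base composition moved with the reads. In State 3 regions of at least 1000 bp, Spearman's rho between reads per kb and GC content was -0.34 over 725 regions of 2L, given as a description because regions share libraries and overlap. State 3 had a median GC content of 40.0%, against 44.9% for State 1, 40.7% for State 4 and 41.4% for State 9. Within 6 classes of GC content the State 3 median was above those of State 4 and State 9 in 6 of 6 and below that of State 1 in 5 of 6. State 2 was above State 3 under 38% GC (716 against 683) and between 40% and 42% (642 against 638). In the other classes State 2 was below State 3. Between 38% and 40% GC, for example, the medians were 657 reads per kb in State 3, 742 in State 1, 654 in State 2, 615 in State 4 and 598 in State 9. The part of base composition in the order of the states beyond these classes was not tested.

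Outside 2L the reads stand at listed coordinates that may not hold the State 3 DNA of dm6, since few dm6 TSSs fell in State 1 there, and they are given as values of the listed intervals, not as State 3 levels. The reads per kb of the intervals listed as State 3 over those of all regions of the arm were 1.07 on 3L, 1.03 on 2R, 1.03 on 3R and 1.02 on X, against 1.11 on 2L. These intervals had 295 reads per kb on X, against 509 to 619 on the autosomal arms. Among intervals listed as State 3 of at least 1000 bp, those soft-masked over at least 50% had low median reads. There were 8 on 2L, 60 on 2R, 18 on 3L, 62 on 3R and 21 on X. In this order their medians were 182, 147, 50.8, 157 and 0 reads per kb, against 641, 574, 607, 582 and 304 for the rest. Their highest values were 264, 678, 474, 615 and 141. Over all intervals of at least 1000 bp, Spearman's rho between reads per kb and masked share was 0.048, -0.165, 0.039, -0.200 and 0.020.

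**Figure D4:**
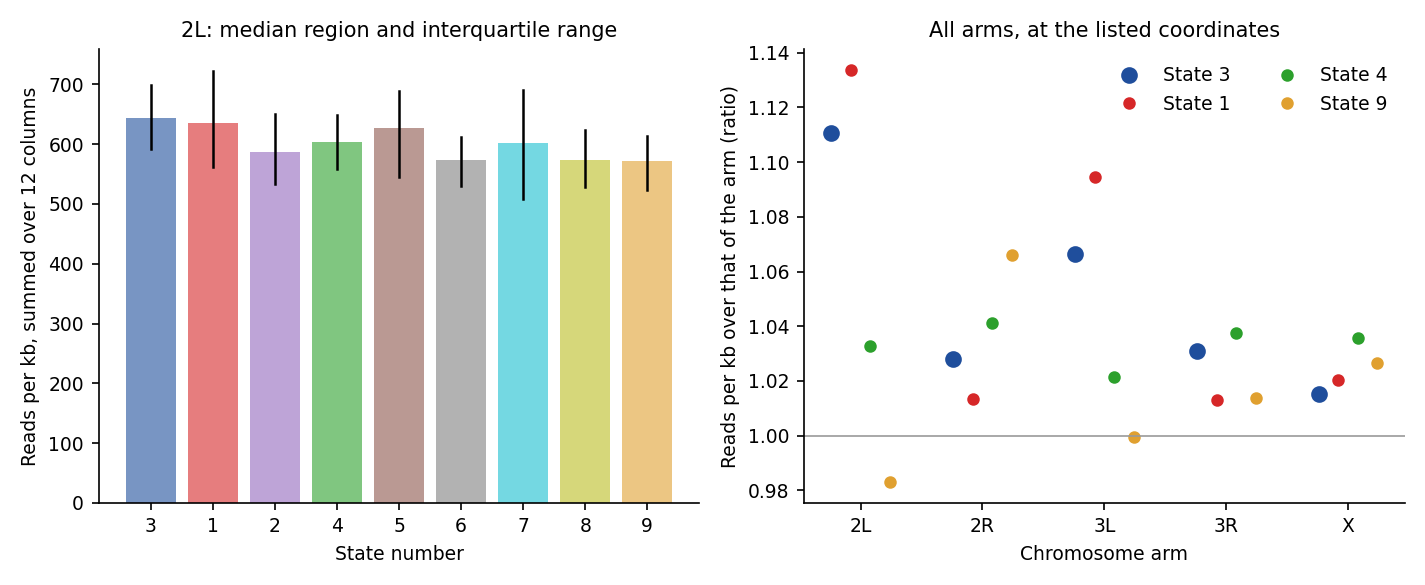
The left panel plots the median reads per kb of the regions of each state on 2L, summed over the 12 columns, with lines for the middle 50% of regions and State 3 at the left. The right panel plots reads per kb of States 3, 1, 4 and 9 over that of all regions, arm by arm, on an axis that does not start at 0. The regions listed as State 3 stand at 1.11 on 2L and between 1.02 and 1.07 on the other arms, where the listed coordinates may not hold State 3 DNA of dm6.

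Among the State 3 regions of 2L, those that were State 3 over at least 90% in the other layer (262) had a median of 661 reads per kb, against 627 for those that were State 3 nowhere in it (347). In that second set the median was 735 where the other layer was mostly State 1 (43 regions), 656 for State 2 (47), 623 for State 4 (131), 606 for State 9 (70) and 578 for State 6 (29). The median GC content of these sets was 36.6%, 40.3%, 40.5%, 40.2% and 41.2% in the same order. Regions that held a TSS had a median of 655 reads per kb, against 634 for those that held none. The 113 regions over 10 kb from a TSS had 600.0.

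Over the 725 State 3 regions of at least 1000 bp on 2L, the reads per kb ran between 7.5 and 1082 with a median of 640, and 90% of regions lay between 507 and 804. The most were in a region of 2400 bp over the start of Gpdh1, the glycerol-3-phosphate dehydrogenase gene (1082, at chr2L:5943363-5945762). It was followed by regions centred in an intron of CG42748 (928), at the rhodopsin gene Rh5 (917) and at Wdr81 (912) and COX7AL2 (907). The fewest were in regions centred in the 3′ UTRs of CG31687 (7.5) and CG31688 (25), with 9 and 35 summed reads. Of their bases, 16.7% and 24.9% were soft-masked, against 19.6% of all State 3 bases of 2L. The authors removed reads of low mapping quality, and whether reads of these regions were lost in that way was not tested.

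Next came an intergenic region (123) and regions centred in introns of osp (54.5), tai (130), Syt1 (154) and ab (209). Others were centred in introns of the protein kinase G gene for (247), CG43739 and sky (261) and Agpat2 (262). The regions at Syt1, for and Agpat2 also held a TSS, and that of Agpat2 was 14400 bp long. Of these 8 regions, 7 were soft-masked over 67.8% to 92.7% of their bases and the one in sky over 19.9%. In chinmo the 4 State 3 regions had 577, 562, 308 and 850 reads per kb from 5′ to 3′, with 26.6%, 21.3%, 32.3% and 22.0% of bases masked. The 2 regions of Socs36E had 596 and 615, between the 90% bounds of the class and under its median.

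State 3 sequence on 2L was searched for 11 motifs on both strands, set beside all 200 bp bins of 2L, and every rate is in matches per kb. The highest ratios to all of 2L were those of the Grainyhead motif AACCGGTT, at 1.99 with only 52 matches, and the GATA motif TGATAAG, at 1.97. GATA matches stood at 0.295 per kb in State 3 (95% Poisson interval 0.275 to 0.318), against 0.202 in State 4, 0.127 in State 9, 0.152 in State 1 and 0.150 in all of 2L, and 5.56% of State 3 bins held one, against 2.89% of all bins. The AP-1 motif TGANTCA stood at 0.334 (0.312 to 0.358), against 0.254 in State 4, 0.190 in State 9 and 0.209 in all of 2L, with 6.37% of State 3 bins and 4.04% of all bins holding one.

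GAGAG, the letters bound by GAGA factor, stood at 1.98 per kb in State 3, against 1.54 in State 1 and 1.35 in State 9, a ratio of 1.32 to all of 2L, and 23.9% of State 3 bins and 21.4% of all bins held one. The Twist type motif CATATG had a ratio of 1.31 and the repeat CACACA, which can overlap itself as GAGAG can, 1.19. Without soft-masked bases CACACA stood at 1.00 per kb in State 3, in place of 1.73, and its ratio was 1.16. Stat92E matches were close to the arm at 0.361 (0.338 to 0.385), against 0.336 in State 4 and 0.333 in all of 2L, and 6.90% of State 3 bins held one, against 6.42% of all bins. The E-box CAGCTG (1.01) and the Zelda motif CAGGTAG (0.908) were near the arm too.

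The DNA replication-related element TATCGATA, a motif of promoters, stood at 0.0216 per kb in State 3, a ratio of 0.818, against 0.123 and a ratio of 4.67 in State 1. The Ets motif CCGGAAG had a ratio of 0.665. State 3 bins had 40.3% GC and all bins 41.8%. Within 4 classes of GC content the ratio of State 3 bins to all other bins was above 1 in 4 of 4 for GATA (1.80 to 2.56), AP-1 (1.55 to 1.91), Grainyhead (1.29 to 2.98), GAGA (1.13 to 1.68) and Stat92E (1.02 to 1.11), and in 0 of 4 for the DNA replication-related element. It was also above 1 in 4 of 4 for the E-box (1.05 to 1.32), Twist (1.16 to 1.44) and CACACA (1.06 to 1.53). For Ets (lowest ratio 0.509) and Zelda (lowest ratio 0.775) it was above 1 in 2 of 4, so the direction for these motifs changed with GC content. Overlapping matches of a motif and bins next to each other are not independent, so the intervals are too narrow.

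**Figure D5:**
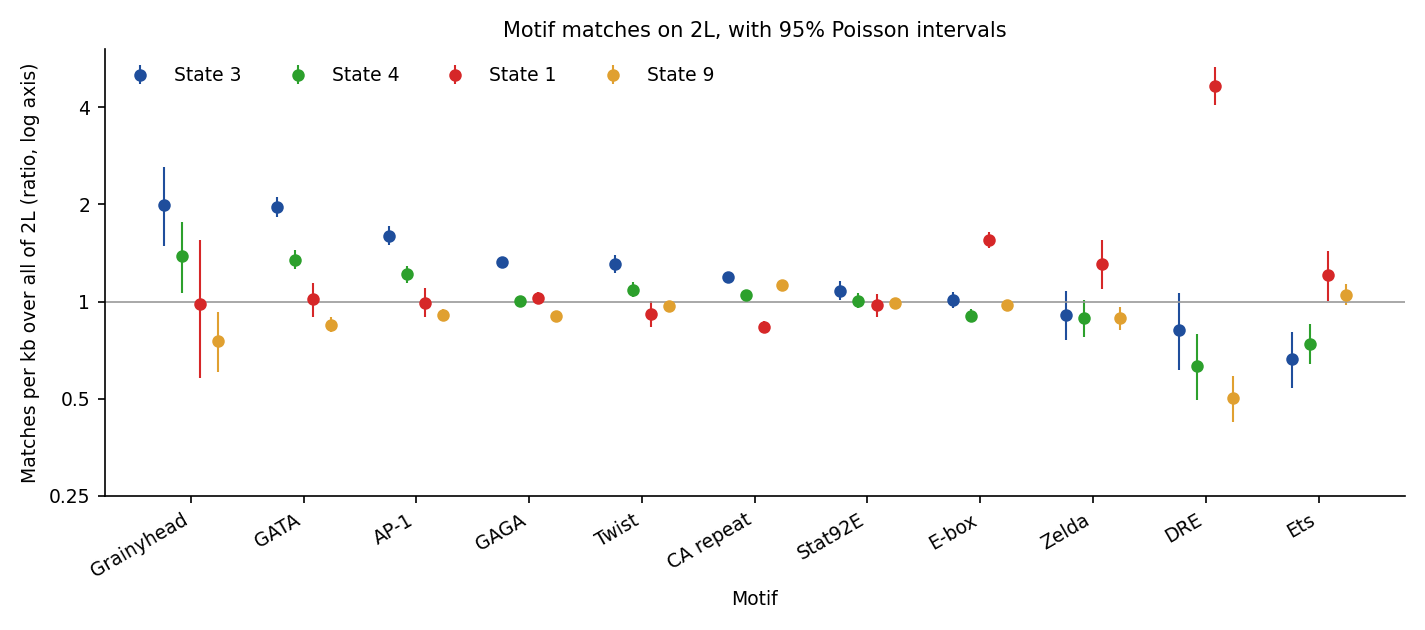
Matches per kb over that of all 2L (ratio, log axis) are plotted for 11 motifs in States 3, 4, 1 and 9, with 95% Poisson intervals. State 3 lies above State 4, State 1 and State 9 for Grainyhead, GATA, AP-1, GAGA, Twist and the CA repeat, with GATA at 1.97, although the Grainyhead intervals of States 3 and 4 overlap, and below State 1 for the E-box, Zelda, the DNA replication-related element (DRE) and Ets.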

How the data were processed

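ChIC libraries of 4 GFP-tagged histones in testis tumors, 3 biological replicates each, were sequenced by the authors, who used Bowtie2 for alignment to dm6 (paper's methods and labels), filtered by mapping quality and duplication, and then tallied the reads over a modENCODE list of 9 chromatin states. The deposited table holds whole-number counts in 12 columns without names. None could be matched to a sample, so their sum per region was used (12 columns not used singly). Its rows matched the list: none of 22116 regions nested in another had more reads than the outer one, and 42 of 42 pairs with equal coordinates had equal counts. The depth of each library is therefore not given. The build of the list is not given in the sources used here.

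Regions were read as half-open intervals on a 200 bp grid. Genes were protein-coding genes of the Ensembl release 115 annotation of dm6. Python 3.11.15, numpy 2.4.6, pandas 2.3.3 and scipy 1.17.1 were used, and binning and motif search were tested on simulated data. No test was run, since the list belongs to no sample and regions are not replicates. Spread is given over arms. Members, gene lists and motifs were chosen with earlier results of these data known. Named were the 15 genes with the most State 3 bases and the 10 with the highest share among genes of at least 5 kb, up to 5 genes per list and all JAK-STAT genes of 2L, the 10 longest regions, the 10 regions with the most and the 10 with the fewest reads per kb among those of at least 1000 bp, and up to 6 bins with the most Stat92E, then GAGA, matches.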

Additional observations from a re-analysis of the deposited data

How the results depend on the processing

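Counting merged regions gave 3257 State 3 regions in place of 5048 and a median of 2400 bp in place of 2200 bp. The share of TSSs inside State 3, 11.3% with every TSS, was 7.38% with 1 TSS per gene and 4.12% over bases that were State 3 in both regions, where the covered share was 4.46% in place of 10.9%. The TSS share was below the covered share with 1 TSS per gene. With every TSS and over bases State 3 in both regions, the interval of the TSS share held the covered share. The share of State 3 regions with a TSS, 40.4%, was 46.8% among regions of at least 1000 bp and 45.5% with all gene types, and the median distance to a TSS, 1658.5 bp from the centre, was 201.5 bp from the nearest edge. Over bases that were State 3 in both regions, the intron, intergenic and coding shares were 80.4%, 7.71% and 3.81%, and the median State 3 share over the 24 genes named by most bases or highest share was 42.5% in place of 77.4%, with 3 genes at 0. Reads per kb on 2L, 619, were 643 as a median over regions, 617 in regions of at least 1000 bp and 623 in regions under 10% soft-masked, an alternative chosen after seeing the data, and at the listed coordinates of the other arms, which may not be State 3 DNA of dm6, 509 (2R), 590 (3L), 544 (3R) and 295 (X), where the ratio to the arm was 1.03, 1.07, 1.03 and 1.02. In bins that were State 3 in both regions, GAGA, AP-1 and GATA matches stood at 2.37, 0.368 and 0.333 per kb. Without soft-masked bases Stat92E, GAGA, AP-1 and GATA stood at 0.392, 1.90, 0.376 and 0.340 per kb, and the CA repeat at 1.00 in place of 1.73. Of 80 values under alternatives, 23 stayed within the spread over arms, the interval or the margin set for them and 57 did not. Single named genes gave 24 of the 80, over bases State 3 in both regions, where a share cannot be higher. Reads per kb were set against a Poisson interval that is too narrow. The tally therefore does not measure how far the results depend on processing. The causes of these moves were not tested. Leaving out each replicate was not run. No paired analysis was possible because no column of reads has a replicate number.

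The state map was not made from these testes, so State 3 here does not say that the DNA was an enhancer in them. Counting error was small on 2L, but the spread between libraries could not be seen, and the depth of each library is unknown. Gene, sequence and motif statements hold for 2L only.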
